A study of Mus musculus with 12 samples.

Results

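Integrins are cell-surface adhesion receptors, each made of an alpha and a beta chain. Here 9 chain genes were followed. Itgal, Itgam, Itgax and Itgb2 are called the beta 2 family here, without the further alpha partner Itgad. The others were the alpha 4 and beta 1 or beta 7 chains (Itga4, Itgb1 and Itgb7) and the alpha V and beta 5 chains (Itgav and Itgb5). The 9 genes were taken by symbol from the 26608 gene rows of the count files. All 9 were found and passed the filter on low counts. RNA had been sequenced from 12 libraries of about 250 cells each, sorted from lungs of C57Bl/6 mice after 3 weeks of hypoxia with a weekly dose of SU5416, an inhibitor of VEGF receptors. The 4 groups of 3 libraries are interstitial macrophages (IM) of Cx3cr1cre;Hif1α Δ/Δ mice (IM deleted: IM649, IM650, IM661), IM of Hif1α flox/flox mice (IM control: IM648, IM659, IM660), nonclassical monocytes (NCM) of Cx3cr1cre;Hif1α Δ/Δ mice (NCM deleted: NCM649, NCM650, NCM661) and NCM of the flox/flox genotype (NCM control: NCM648, NCM657, NCM659). Values of a group are given in that order. Hif1α is the subunit of HIF-1 that low oxygen stabilises. Cx3cr1, which drives the Cre, is a chemokine receptor gene of monocytes and macrophages. Because only the deleted animals carried Cre, effects of Cre and of the deletion cannot be told apart, and every animal had been exposed, so there is no normoxic group. Nothing states which library numbers are separate animals, so p-values measure only the spread between these libraries, which may be technical.

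Beta 2 integrins are restricted to leukocytes. Itgal with Itgb2 forms LFA-1, which binds ICAM on endothelium and which patrolling monocytes of mice need to crawl along the vessel wall. Itgam with Itgb2 forms Mac-1, a receptor for complement fragments and fibrinogen, and Itgax with Itgb2 forms another complement receptor. Itga4 pairs with Itgb1 to bind VCAM-1 and fibronectin, or with Itgb7 to bind MAdCAM-1. Itgav pairs with Itgb5 to bind vitronectin and takes part in the uptake of dead cells. An alpha chain reaches the surface only with a beta partner, so transcript levels of the chains do not give the number of receptors. The products of Itgam and Itgax are commonly used to sort lung myeloid cells. The sources used here do not give the sorting markers, and whether a gate on them set part of their levels was not tested.

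The libraries held 5332600 to 14099509 counts in gene rows. IM control libraries were the deepest (13333039 to 14099509 counts). Reads that the counting gave to no gene feature, taken over these plus the gene counts, are called the non-exonic share here. It was 59.2 to 69.8% in IM deleted libraries, against 38.5 to 44.2% in IM control libraries. NCM deleted libraries had 55.1 to 72.7% and NCM control libraries 58.1 to 66.8%. The strand setting of the counting is not given, so whether all these reads lie outside exons cannot be told. Hif1a itself averaged 199 ± 6.50 CPM (the count scaled to a fixed library total) in IM deleted and 228 ± 15.6 CPM in IM control libraries, and 172 ± 34.8 CPM in NCM deleted against 225 ± 19.6 CPM in NCM control libraries (SD, n = 3 each). Neither change passed edgeR's quasi-likelihood test (Benjamini-Hochberg adjusted p = 0.938 in IM and 0.407 in NCM), and counts over whole genes do not measure the loss of single exons. The labelled cell types showed in their markers: 13 of 18 interstitial macrophage markers were higher in IM control than in NCM control, and 12 of 16 nonclassical monocyte markers were lower, by the same test. NCM661 stood apart from the other NCM libraries, with the highest summed endothelial markers (13463 CPM) and the lowest summed nonclassical monocyte markers (4303 CPM).

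Of the beta 2 family genes, 3 lie on chromosome 7 of GRCm38, all on the plus strand by GENCODE M21: Itgal from 127296260 to 127335138, Itgam from 128062640 to 128118491 and Itgax from 128129547 to 128150657, with 11055 bases between the end of Itgam and the start of Itgax. Itgb2 lies on chromosome 10 from 77530252 to 77565708, Itga4 on chromosome 2 from 79255426 to 79333123, and Itgb5 on chromosome 16 from 33829665 to 33949338. Itgb1 lies on chromosome 8 from 128685654 to 128733200, Itgb7 on the minus strand of chromosome 15 from 102215995 to 102231944, and Itgav on chromosome 2 from 83724397 to 83806916. Promoters are printed for the neighbouring genes Itgam and Itgax, whose levels moved together, and for Itga4 and Itgb5, which differed between the cell types in opposite directions. Each holds 250 bases before and 50 after the start used in RefSeq's promoter table, on the plus strand of GRCm38.p6 (for Itgax this start lies slightly inside the annotated gene), and capitals mark a match to a searched motif on either strand. RefSeq's promoter table held 7 of the 9 genes, without Itgal and Itgb2. The windows are chr7:128062390-128062689 for Itgam, chr7:128129300-128129599 for Itgax, chr2:79255176-79255475 for Itga4 and chr16:33829415-33829714 for Itgb5.
Itgam: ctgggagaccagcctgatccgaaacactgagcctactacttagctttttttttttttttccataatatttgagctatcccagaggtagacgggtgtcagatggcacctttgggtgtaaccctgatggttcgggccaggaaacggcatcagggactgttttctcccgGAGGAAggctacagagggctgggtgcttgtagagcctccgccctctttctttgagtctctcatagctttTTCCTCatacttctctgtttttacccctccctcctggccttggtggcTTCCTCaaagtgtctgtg
Itgax: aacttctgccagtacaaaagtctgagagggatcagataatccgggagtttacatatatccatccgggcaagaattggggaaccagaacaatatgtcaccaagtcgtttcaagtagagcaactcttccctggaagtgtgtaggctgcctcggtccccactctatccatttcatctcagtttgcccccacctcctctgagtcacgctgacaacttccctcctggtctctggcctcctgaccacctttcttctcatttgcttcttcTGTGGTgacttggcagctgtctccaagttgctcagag
Itga4: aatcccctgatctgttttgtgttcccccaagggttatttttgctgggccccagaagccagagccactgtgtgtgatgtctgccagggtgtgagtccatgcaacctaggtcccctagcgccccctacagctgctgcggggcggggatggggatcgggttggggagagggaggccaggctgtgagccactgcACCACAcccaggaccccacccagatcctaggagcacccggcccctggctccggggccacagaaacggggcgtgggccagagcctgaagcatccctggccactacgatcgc
Itgb5: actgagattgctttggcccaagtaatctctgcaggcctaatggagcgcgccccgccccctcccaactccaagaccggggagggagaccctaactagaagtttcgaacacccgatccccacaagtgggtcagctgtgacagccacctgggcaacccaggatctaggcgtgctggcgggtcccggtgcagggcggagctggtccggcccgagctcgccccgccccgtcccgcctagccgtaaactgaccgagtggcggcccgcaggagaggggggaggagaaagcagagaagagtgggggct
The 3 motifs below were searched on both strands: GAGGAA, a core bound by ETS factors such as PU.1, TGTGGT, a core bound by RUNX factors, and ACGTG, the core of the hypoxia response element. GAGGAA was found in 28.3% of all 32851 promoters in the table, TGTGGT in 16.8% and ACGTG in 19.6%. The Itgam promoter held 3 GAGGAA matches, with first bases 84 and 15 bases before and 32 bases after the start. GAGGAA was also found in the windows of Itgb1, Itgb7 and Itgav, which are not printed. The Itgax promoter held 1 TGTGGT match after the start, and the Itga4 promoter held 1 TGTGGT match on the minus strand. The matches did not overlap one another. The Itgb5 promoter held none of the 3 motifs, and ACGTG was not among the letters of any of the 7 windows. PU.1 and RUNX factors are known regulators of myeloid integrin genes, but a match is only a description of letters.

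Per kilobase of exon, Itgb2 was the most abundant of the 9 chains in 3 of the 4 groups. In NCM control libraries it averaged 632 ± 97.1 CPM per kb and stood alone. Itgal (248 ± 82.2 CPM per kb) and Itgam (246 ± 11.3 CPM per kb) followed with overlapping ranges, then Itgb1 (209 ± 9.49) and Itga4 (163 ± 53.7), whose ranges also overlapped. Itgax, Itgb7, Itgb5 and Itgav came last, between 71.5 and 30.3 CPM per kb, and only Itgb5 and Itgav overlapped among these neighbours. In IM control libraries Itgb2 led again (222 ± 29.3 CPM per kb), ahead of Itgam (184 ± 2.64 CPM per kb) and Itgb1 (171 ± 6.73 CPM per kb), with no overlap between neighbours. Itgal there was next to last, at 10.4 ± 2.49 CPM per kb, and overlapped Itgb7 (9.86 ± 3.19 CPM per kb). In IM deleted libraries Itgb1, Itgb2 and Itgam overlapped at the top (154, 142 and 136 CPM per kb on average). In NCM deleted libraries Itgb2 (264 ± 115 CPM per kb) overlapped Itgb1 (213 ± 13.6 CPM per kb). All SDs are over 3 libraries. The exon lengths of Itga4 (13978 bases) and Itgav (10744 bases) are the longest of the 9, so their levels per kilobase depend on the annotation chosen.

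IM differed from NCM most in Itgal, the alpha chain of LFA-1. Itgal had 53.1, 46.6 and 49.3 CPM in IM deleted libraries and 72.2, 50.03 and 81.9 CPM in IM control libraries, against 927, 1249 and 375 CPM in NCM deleted and 2189, 1580.15 and 1112 CPM in NCM control libraries. Every IM library was below every NCM library. The fold was 23.9 lower in IM control than in NCM control (log2 fold change -4.58 ± 0.42, SE; edgeR quasi-likelihood adjusted p = 5.39e-05) and 17.1 lower in IM deleted than in NCM deleted (log2 fold change -4.10 ± 0.41; adjusted p = 4.99e-05). Both calls held in each of the 12 fits that left out 1 library.

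Itgb2, the shared beta chain, was lower in IM by less. It had 468, 306 and 529 CPM in IM deleted and 677, 589 and 768 CPM in IM control libraries, against 899, 1101 and 416 CPM in NCM deleted and 2217, 1947 and 1625 CPM in NCM control libraries. The control groups did not overlap, whereas NCM661 fell among the IM deleted libraries. Between controls IM was 2.85-fold lower (log2 fold change -1.51 ± 0.32; edgeR adjusted p = 0.00847), a call that was lost without IM659 (adjusted p = 0.0731). Between deleted groups the log2 fold change of Itgb2 was -0.89 ± 0.31 and did not pass (edgeR adjusted p = 0.147), though it did without NCM661 (adjusted p = 0.00442).

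Itgam and Itgax, 2 further alpha partners of Itgb2, did not pass the test between IM and NCM. Itgam had 552, 576 and 922 CPM in IM deleted and 925, 909 and 935 CPM in IM control libraries, against 528, 737 and 259 CPM in NCM deleted and 1179, 1293 and 1232 CPM in NCM control libraries. Its log2 fold change was -0.42 between controls (95% interval -1.08 to 0.24; edgeR adjusted p = 0.534) and 0.43 between deleted groups (interval -0.23 to 1.09; adjusted p = 0.589). Itgax had 197, 164 and 249 CPM in IM deleted and 331, 272 and 444 CPM in IM control libraries, against 129, 174 and 86.7 CPM in NCM deleted and 487, 264 and 280.3 CPM in NCM control libraries. Its log2 fold change was 0.02 between controls (interval -0.64 to 0.69; edgeR adjusted p = 0.985) and 0.65 between deleted groups (interval -0.03 to 1.32; adjusted p = 0.348). For both genes the control cell types lay close together, in Itgam without overlap and in Itgax with it.

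**Figure D1:**
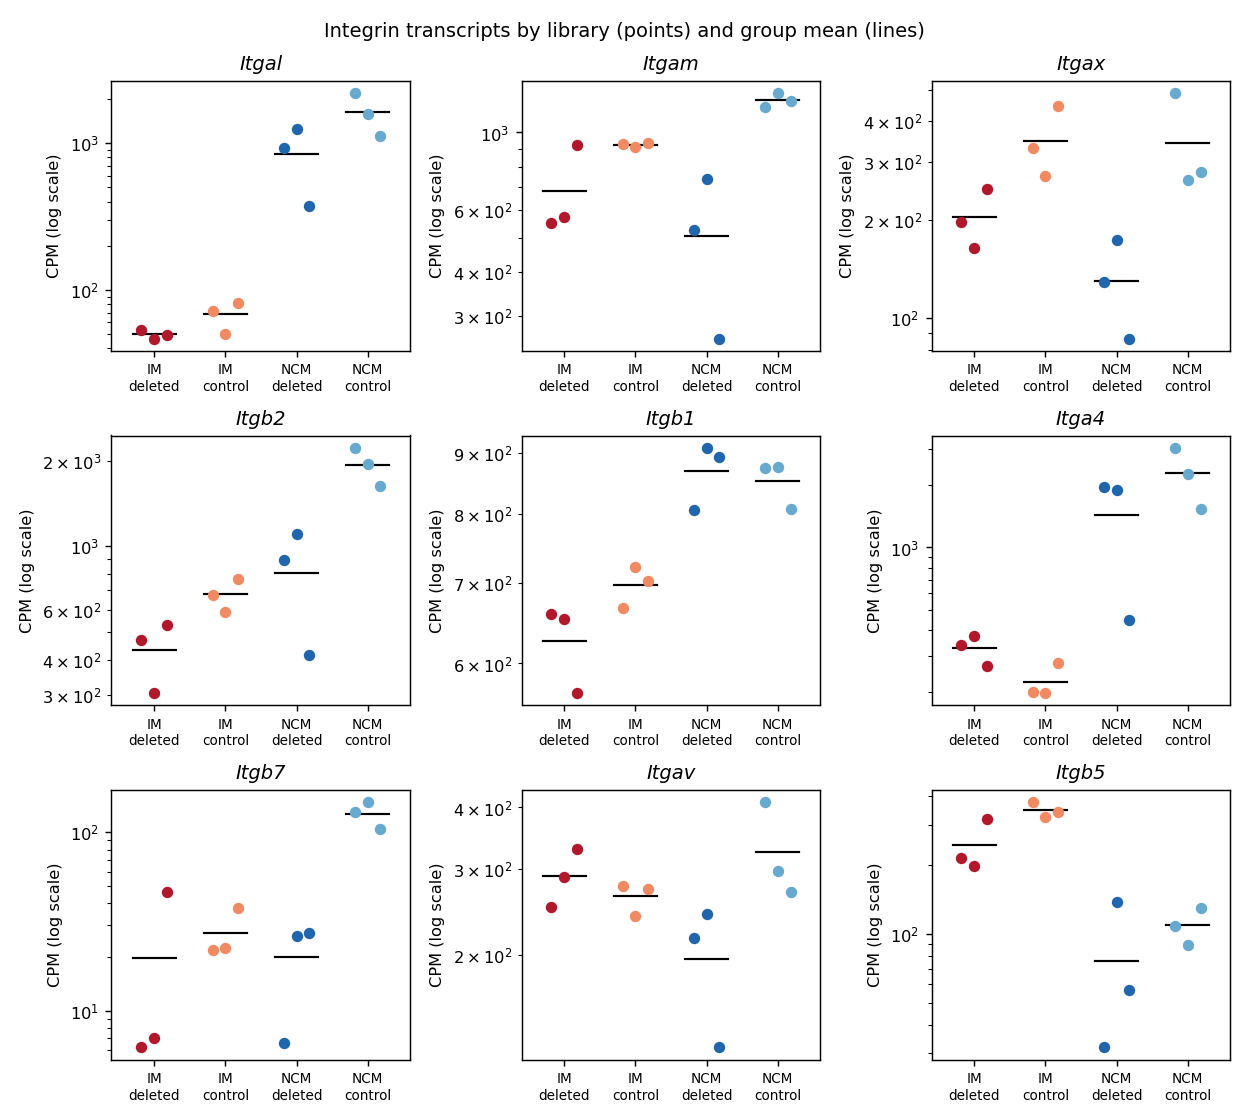
Level of each integrin chain in CPM (log axis, own scale per gene) by library; points are libraries and lines are group means, with the deleted group left of its control within IM and within NCM. Itgal lies between 46.6 and 81.9 CPM in the 6 IM libraries and between 375 and 2189 CPM in the 6 NCM libraries, while Itgb5 is higher in each IM library than in each NCM library of the same genotype.

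Itga4, the alpha 4 chain, was also lower in IM. It had 336, 375 and 266 CPM in IM deleted and 199, 198 and 275 CPM in IM control libraries, against 1965, 1899.75 and 447 CPM in NCM deleted and 3034, 2270.2 and 1534 CPM in NCM control libraries. No IM library reached an NCM library, and NCM661 was the lowest of the NCM. IM was 10.2-fold lower between controls (log2 fold change -3.35 ± 0.45; edgeR adjusted p = 0.000518) and 4.41-fold lower between deleted groups (log2 fold change -2.14 ± 0.43; adjusted p = 0.00778). Both calls held in each fit that left out 1 library. Exons of Itga4 overlap those of Cerkl on the opposite strand, whose row held 0 to 56 counts per library against 1968 to 20565 for Itga4. The sources used here do not give the strand setting of the counting, so reads of the overlap cannot be told apart.

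Itgb1, the beta partner shared by many alpha chains, did not pass in edgeR. It had 659.7, 653 and 567 CPM in IM deleted and 668, 722 and 703 CPM in IM control libraries, against 806, 909 and 893 CPM in NCM deleted and 874, 876 and 808 CPM in NCM control libraries. Each IM library was below each NCM library, but by little: the log2 fold change was -0.29 between controls (95% interval -0.69 to 0.11; edgeR adjusted p = 0.456) and -0.47 between deleted groups (interval -0.88 to -0.07; adjusted p = 0.221). DESeq2 called it lower between deleted groups (log2 fold change -0.54, adjusted p = 0.00493). Itgb7, the other beta partner of Itga4, had 6.21, 6.97 and 46.1 CPM in IM deleted and 21.9, 22.5 and 37.5 CPM in IM control libraries, against 6.60, 26.3 and 27.1 CPM in NCM deleted and 129, 147 and 105 CPM in NCM control libraries. The control cell types did not overlap and the deleted ones did. Between controls its log2 fold change was -2.22 ± 0.69 (edgeR adjusted p = 0.0650). It passed without IM649 (0.0491), IM661 (0.0147) or NCM649 (0.0489), but not in the other 9 of 12 fits that left out 1 library (up to 0.244). Of 7 other settings it passed in 2, by DESeq2 (0.0260) and in a fit of only the 6 control libraries, and the highest value was 0.275. Between deleted groups its log2 fold change was -0.02 ± 0.67 (edgeR adjusted p = 0.993).

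Itgb5 was the only one of the 9 chains that the test called higher in IM, in both genotypes. It had 214, 198 and 317 CPM in IM deleted and 375, 322 and 340.1 CPM in IM control libraries, against 31.8, 138 and 57.0 CPM in NCM deleted and 108, 89.4 and 130.1 CPM in NCM control libraries. The cell types did not overlap in either genotype. IM was 3.17-fold higher between controls (log2 fold change 1.66 ± 0.40; edgeR adjusted p = 0.0189) and 3.21-fold higher between deleted groups (log2 fold change 1.68 ± 0.40; adjusted p = 0.0242). The first call was lost without IM648 (0.0650), NCM648 (0.0783) or NCM657 (0.0815), and the second without IM661 (0.150) or NCM649 (0.0541). Without NCM650 the second log2 fold change was 2.45. Its partner Itgav had 251, 289 and 329.65 CPM in IM deleted and 277, 241 and 273 CPM in IM control libraries, against 216, 242 and 129.6 CPM in NCM deleted and 410.0, 297 and 269 CPM in NCM control libraries. The log2 fold change of Itgav was -0.30 between controls (95% interval -0.86 to 0.25; edgeR adjusted p = 0.617) and 0.56 between deleted groups (interval 0.01 to 1.123; adjusted p = 0.316).

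In all, 4 of the 9 chains passed between IM control and NCM control (Itgal, Itga4 and Itgb2 lower, Itgb5 higher), where 7.48% of the 14254 genes tested passed (2.81% higher and 4.67% lower). Between IM deleted and NCM deleted 3 of the 9 passed (Itgal and Itga4 lower, Itgb5 higher), where 4.57% of genes passed (3.22% higher and 1.35% lower). The median log2 fold change of the 9 chains was -0.42 between controls and -0.02 between deleted groups, beside 0.06 and 0.14 over all genes. Between controls, 6 chains were lower and 1 was higher in IM with no overlap of libraries, where 17.2% of all genes were so lower, 18.6% so higher and 35.8% either. Between deleted groups, 3 chains were lower and 2 (Itgb5 and Itgav) were higher with no overlap, where 6.25% of genes were so lower, 16% so higher and 22.2% either. With the non-exonic share as a covariate, 1 chain (Itgal) passed between controls, where 28 genes in all passed in place of 1066, at a log2 fold change of -3.09, while Itga4 was at -1.32 (edgeR adjusted p = 0.218), Itgb2 at -0.68 (0.735) and Itgb5 at 1.73 (0.563). That share was 38.5 to 44.2% in IM control and 58.1 to 66.8% in NCM control libraries, with no overlap. Between controls it therefore cannot be told apart from cell type, and its part in the differences was not tested. Of 9 alveolar macrophage markers, 8 were above 0 between controls (3 passed as higher and 1 as lower), with sums of 1527 to 1670.4 CPM in IM control against 359.99 to 376 CPM in NCM control and no marker at 0 in a whole group. Of 9 tested T and NK cell markers, 8 were below 0 (Gzma passed), with sums of 12.8 to 50.3 CPM in IM control against 24.5 to 101 CPM in NCM control, and Gzma and Ncr1 were at 0 in IM control. The part of these markers in the integrin differences was not tested. In a fit of only the 6 deleted libraries, Itga4 (edgeR adjusted p = 0.0775) and Itgb5 (0.191) no longer passed between deleted groups. The lanes of IM and NCM libraries were not the same, and lane cannot be told apart from cell type.

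**Figure D2:**
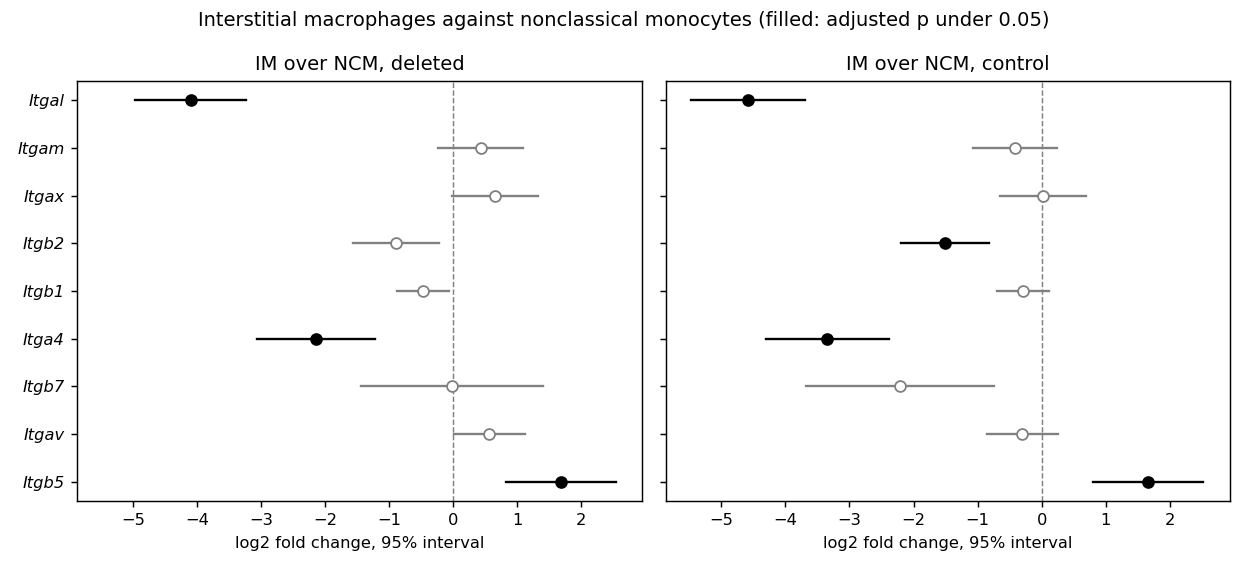
Log2 fold change of each chain, IM over NCM, with its 95% interval, in the deleted genotype (left) and the control genotype (right); filled points passed at an adjusted p under 0.05. Itgal and Itga4 lie left of 0 and Itgb5 lies right of 0 in both genotypes, and Itgb2 is filled between controls only; the difference between genotypes is tested separately.

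The make-up of the beta 2 family was compared within a library, as a share of counts per kilobase, which no scaling of libraries changes. Itgal made up 5.09, 4.55 and 3.09% of the 3 alpha chains in IM deleted and 4.17, 3.11 and 4.28% in IM control libraries, against 51.7, 51.0 and 45.1% in NCM deleted and 49.8, 43.5 and 35.8% in NCM control libraries. In IM, Itgam took most of the alpha total instead, at 72.7 ± 3.28% in IM deleted and 69.1 ± 4.95% in IM control, against 39.5 ± 1.10% in NCM deleted and 44.5 ± 8.58% in NCM control (SD, n = 3 each). Itgax took 23.01 ± 2.41% in IM deleted and 27.0 ± 4.402% in IM control, against 11.3 ± 2.58% in NCM deleted and 12.5 ± 2.61% in NCM control. Among these 3 alpha chains, which leave out Itgad, IM transcripts were thus led by the Mac-1 alpha chain. In the NCM libraries Itgal took 35.8 to 51.7% and Itgam 35.1 to 51.9%, with Itgal ahead in each NCM deleted library.

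Over both genotypes IM minus NCM was -42.1 percentage points for Itgal, 29.0 for Itgam and 13.1 for Itgax. Each had an exact two-sided permutation p of 0.005, the smallest that the 400 arrangements within genotype give, and an adjusted p of 0.0133 over the 8 tests of shares. The 3 shares of a library sum to a whole, so these are not independent results. Itgb2 made up 40.6, 31.4 and 41.5% of the 4 beta chains (Itgb1, Itgb2, Itgb5 and Itgb7) in IM deleted and 44.5, 41.2 and 47.2% in IM control libraries, against 58.5, 57.1 and 35.8% in NCM deleted and 71.4, 68.5 and 66.2% in NCM control libraries. IM minus NCM was -18.5 percentage points for this share (exact permutation p = 0.015, adjusted p = 0.024). These 4 calls held when any 1 library was left out.

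The summed alpha chains per kilobase stood to Itgb2 per kilobase as 1.33 ± 0.27 in IM deleted and 1.21 ± 0.06 in IM control libraries, against 0.96 ± 0.06 in NCM deleted and 0.89 ± 0.03 in NCM control libraries. Every IM library was above every NCM library, though the lowest IM deleted library (1.035) and the highest NCM deleted library (1.034) were almost level. Itga4 per kilobase stood to Itgb1 as 0.151 ± 0.015 in IM deleted and 0.094 ± 0.018 in IM control libraries, against 0.490 ± 0.302 in NCM deleted and 0.775 ± 0.231 in NCM control libraries. Itgav stood to Itgb5 as 0.404 ± 0.071 in IM deleted and 0.252 ± 0.011 in IM control, against 1.19 ± 0.92 in NCM deleted and 1.01 ± 0.30 in NCM control. Per kilobase, Itgb5 thus exceeded Itgav in each IM library. In CPM, Itgb5 was above Itgav in each IM control library but below it in each IM deleted library. These ratios are given as descriptions with no test.

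**Figure D3:**
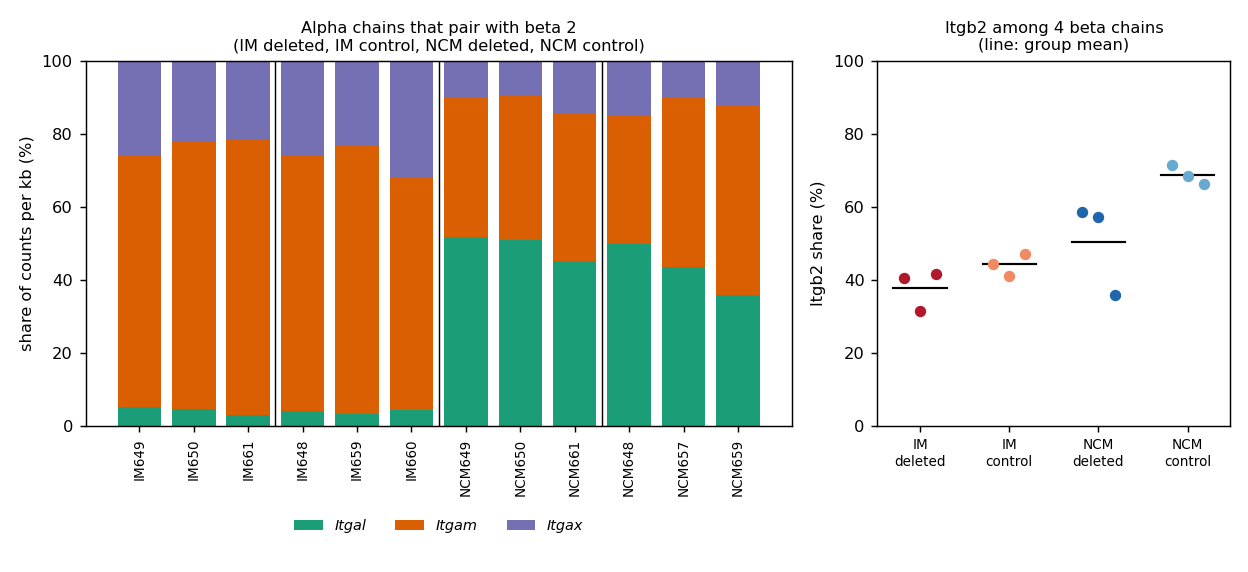
Left, share of Itgal, Itgam and Itgax in their summed counts per kilobase (%), 1 bar per library, in the order IM deleted, IM control, NCM deleted, NCM control; right, share of Itgb2 among Itgb1, Itgb2, Itgb5 and Itgb7 (%), points for libraries and lines for group means. Itgal takes 3.09 to 5.09% in IM libraries and 35.8 to 51.7% in NCM libraries.

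Deletion of Hif1a in NCM went with lower values of the beta 2 family, but no chain passed the test. In NCM deleted against NCM control, the log2 fold change was -1.28 ± 0.32 for Itgam (edgeR adjusted p = 0.0658), -1.40 ± 0.32 for Itgax (0.0570), -1.26 ± 0.32 for Itgb2 (0.0710) and -0.94 ± 0.36 for Itgal (0.215). The per-library CPM given above did not overlap for Itgam, Itgax and Itgb2, with each deleted library under each control library, whereas Itgal overlapped through NCM650. Of the other chains, Itgb7 had the largest difference (log2 fold change -2.66 ± 0.70; adjusted p = 0.0837), again with no overlap: 6.60, 26.3 and 27.1 CPM in NCM deleted against 129, 147 and 105 CPM in NCM control libraries. Itgav was at -0.73 ± 0.26 (adjusted p = 0.181) with no overlap, Itga4 at -0.67 ± 0.41 (0.462) and Itgb5 at -0.53 ± 0.40 (0.550). Itgb1 was at 0.03 with a 95% interval of -0.37 to 0.43 (edgeR adjusted p = 0.964).

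So 0 of the 9 chains passed, where 0.421% of genes passed (0.0842% higher and 0.337% lower), and 6 had an unadjusted p under 0.05 in edgeR, as did 2301 of the 14254 genes. DESeq2 called 4 of them lower (Itgam, Itgax, Itgb2 and Itgb7), among 1093 genes called by that tool. There were 5 chains lower with no overlap, and none was higher so, where 11.4% of genes were so lower, 5.9% so higher and 17.3% either. The median log2 fold change was -0.94 over the 9 chains and -0.10 over all genes, and the other scaling moved the median over all genes by 0.14. The outcome varied between fits. Without NCM650, Itgam (edgeR adjusted p = 0.0294), Itgax (0.0341) and Itgb2 (0.0394) passed. Without NCM661, Itgam (0.0380) and Itgb2 (0.0440) passed, and without IM661, Itgb7 (0.0458) passed. Other fits weakened them: leaving out 1 library gave up to 0.200, 0.192 and 0.201 for Itgam, Itgax and Itgb2. The other scaling gave 0.0982, 0.0925 and 0.110 for these genes, and the highest values under other settings were 0.359, 0.313 and 0.370. No chain passed with lane as a covariate (3 genes in all) or in a fit of only the 6 NCM libraries (0 genes). Within lanes, which held 1 or 2 libraries a genotype and allowed no test, all 9 chains were lower in deleted libraries in lane 8, and 6 of 9 in lane 6. Lane 8 set NCM649 and NCM661 against NCM648 alone, and lane 6 set NCM650 against NCM657 and NCM659. The share of all genes lower within a lane was not computed, so these counts have no background. Itgb2 differed by -1.86 on the log2 scale in lane 8 and by -0.69 in lane 6, and Itgax by -2.20 and -0.65. Itgam differed by -1.67 in lane 8 and -0.78 in lane 6, Itgb7 by -3.28 and -2.24, and Itgal by -1.89 and -0.09. With the non-exonic share as a covariate, 6 chains passed as lower (Itgal, Itgam, Itgax, Itgb2, Itga4 and Itgav). In that fit 351 of all genes passed, in place of 60.

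**Figure D4:**
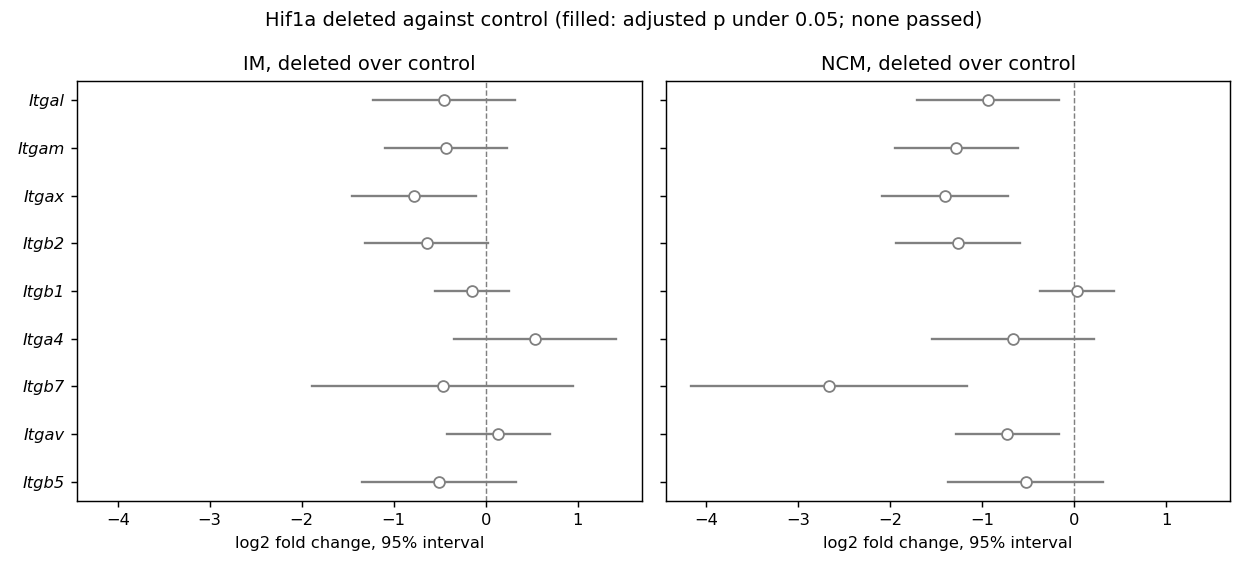
Log2 fold change of each chain, deleted over control, with its 95% interval, in IM (left) and NCM (right); no point passed at an adjusted p under 0.05. In NCM, Itgam, Itgax, Itgb2 and Itgb7 lie between -1.26 and -2.66, and Itgb1 lies at 0.03.

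Markers moved with the NCM contrast. All 16 nonclassical monocyte markers had a fold change below 0 (1 passed), and their sum was 7892, 8464 and 4303 CPM in NCM deleted against 15712, 11010 and 9951 CPM in NCM control libraries. Of 18 endothelial markers, 17 were above 0 (none passed), and their sum was 6562, 5614.5 and 13463 CPM in NCM deleted against 1330, 2430 and 4407 CPM in NCM control libraries. Of 18 interstitial macrophage markers, 16 were below 0 (none passed), with sums of 1069 to 1620.5 CPM in NCM deleted and 2118 to 3551 CPM in NCM control. Of 9 epithelial markers, 8 were above 0 (none passed), with sums of 1763.7 to 2668.5 CPM in NCM deleted and 328 to 2116 CPM in NCM control. Of 9 alveolar macrophage markers, 7 were above 0, as were 6 of 7 tested fibroblast and smooth muscle markers (none passed). Apart from Lum of the fibroblast list, at 0 in NCM control, no marker of these lists was at 0 in a whole NCM group. The part of these markers in the integrin differences was not tested. In bulk libraries, fewer cells of a type and less RNA per cell cannot be told apart.

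The summed CPM of Itgal, Itgam, Itgax and Itgb2 was 2483, 3261 and 1137 in NCM deleted against 6072, 5084 and 4249 in NCM control libraries, and NCM661 was the lowest. As a description added after the values were seen, each chain was divided by the summed nonclassical monocyte markers of its library. Itgb2 then stood at 0.114, 0.13009 and 0.0966 in NCM deleted against 0.141, 0.177 and 0.163 in NCM control libraries, and Itgax and Itgb7 were also lower without overlap. Itgal and Itgam overlapped on this scale. Itgb1 was higher without overlap on this scale (0.102 to 0.208 in NCM deleted against 0.0556 to 0.0812 in NCM control). So was Itgav by little (0.0274 to 0.0301 in NCM deleted against 0.0261 to 0.0270 in NCM control). The CPM of Itgb1 itself was level (log2 fold change 0.03), so its ratio rose because the marker sum was lower.

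**Figure D5:**
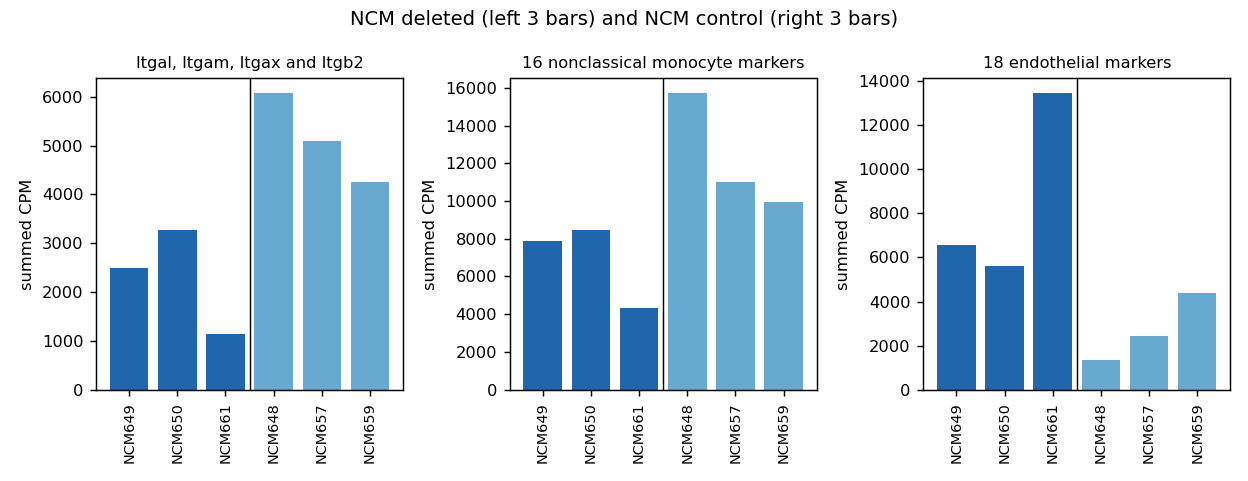
Summed CPM per NCM library of the 4 beta 2 family genes (left), of 16 nonclassical monocyte markers (middle) and of 18 endothelial markers (right), NCM deleted libraries left of NCM control libraries. The deleted libraries have 1137 to 3261 CPM of beta 2 family transcripts against 4249 to 6072 CPM in controls, and NCM661 has both the least of these and the most endothelial markers (13463 CPM).

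The share of Itgb2 among the 4 beta chains was lower in deleted libraries over both cell types. It was 37.8 ± 5.57% in IM deleted against 44.3 ± 3.02% in IM control, and 50.5 ± 12.8% in NCM deleted against 68.7 ± 2.62% in NCM control (SD, n = 3 each). The stratified difference was -12.3 percentage points (exact permutation p = 0.01, adjusted p = 0.02). It held when any 1 library was left out, between -14.3 and -8.65 points, and the smallest difference was without NCM661. Within lanes the share differed by -12.7 and -3.40 points in IM (lanes 5 and 7) and by -10.2 and -24.3 points in NCM (lanes 6 and 8). Taken alone, NCM gave -18.2 points with no overlap (exact permutation p = 0.1, the smallest that 3 against 3 allows), and IM gave -6.42 points with overlap (p = 0.2). The endothelial marker sums given above also differed between the NCM groups, and their part in this share was not tested.

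None of the 3 alpha shares passed the test for the deletion. The stratified differences, deleted minus control, were 3.30 percentage points for Itgal (exact permutation p = 0.13, adjusted 0.173), -0.70 for Itgam (p = 0.81, adjusted 0.81) and -2.60 for Itgax (p = 0.17, adjusted 0.194). The sign for Itgam turned without IM659 (0.457 points), IM649 (0.203 points) or NCM659 (1.14 points).

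In IM, 0 of the 9 chains passed with the deletion, where 0.288% of genes passed (0.239% higher and 0.0491% lower). Itgax alone had an unadjusted p under 0.05 in edgeR, at a log2 fold change of -0.78 ± 0.32 (adjusted p = 0.388), where 1403 of the 14254 genes had one. DESeq2 called 0 of the 9, among 440 genes called. Itgb2 was at -0.64 ± 0.31 (edgeR adjusted p = 0.544), Itgb5 at -0.51 ± 0.39 (0.829) and Itgb1 at -0.15 ± 0.19 (0.964). These 4 were lower with no overlap, where 13.4% of genes were so lower, 16.2% so higher and 29.6% either. Itgal was at -0.46 ± 0.36, Itgam at -0.43 ± 0.31 and Itgb7 at -0.47 ± 0.67, with adjusted p of 0.840, 0.795 and 0.977 by edgeR. Itgam of IM661 (922 CPM) lay among the controls (909 to 935 CPM), while IM649 and IM650 lay lower (552 and 576 CPM). Itga4 stood above 0 at 0.54 ± 0.41 (edgeR adjusted p = 0.827) and Itgav at 0.14 ± 0.26 (0.994).

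The median log2 fold change in IM was -0.46 over the 9 chains, beside 0.07 over all genes. Within lanes, 7 of the 9 chains were lower in the deleted libraries in both lane 5 and lane 7, and the share of all genes so lower was not computed. Itgax differed by -1.08 in lane 5 and -0.58 in lane 7, and Itgb2 by -1.14 and -0.44. Itgb7 was at -2.11 without IM661, whose value (46.1 CPM) was the highest of the IM libraries. The non-exonic share did not overlap between the IM genotypes (59.2 to 69.8% in IM deleted against 38.5 to 44.2% in IM control), so in IM it cannot be told apart from the genotype. Marker sums also differed: 12230 to 14817 CPM in IM deleted against 17582 to 18117 CPM in IM control for the 18 interstitial macrophage markers (13 below 0, none passed), and 2685 to 3716 against 4252 to 4643 CPM for the 16 nonclassical monocyte markers (14 below 0, none passed). The 9 alveolar macrophage markers were all below 0 (none passed), with sums of 487 to 1501.5 CPM in IM deleted against 1527 to 1670.4 CPM in IM control. No marker of these lists was at 0 in a whole group, and their part in the values was not tested.

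Whether the deletion acted differently in the 2 cell types was tested as the difference of the effects, IM minus NCM. None of the 9 chains passed, and neither did any gene (0% of 14254; 1271 genes had an unadjusted p under 0.05), while DESeq2 called 108 genes and 0 of the chains. The largest was Itgb7 (log2 difference 2.20, 95% interval 0.18 to 4.22; edgeR adjusted p = 0.537), followed by Itga4 (1.205, interval -0.04 to 2.45; 0.574), Itgav (0.87, interval 0.08 to 1.66; 0.528) and Itgam (0.85, interval -0.09 to 1.78; 0.599). Of the 9, Itgb7 and Itgav had an unadjusted p under 0.05. The median over the 9 chains was 0.62, beside 0.19 over all genes, which the other scaling moved by -0.15. Itgax and Itgb2 stood at 0.62 each (intervals -0.32 to 1.57 and -0.32 to 1.56).

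Among 18 other integrin chains, 14 were tested. Of these, 1 was higher in IM control than in NCM control: Itga9, a partner of Itgb1, at 138 ± 5.51 CPM against 38.2 ± 18.99 CPM (log2 fold change 1.85 ± 0.52; edgeR adjusted p = 0.0429). That call was lost in 8 of 12 fits that left out 1 library (IM648, IM659, IM660, IM649, IM650, NCM648, NCM657 and NCM650; adjusted p 0.0559 to 0.177). None passed for the deletion, nor between deleted groups, where Itga1 was at -1.25 ± 0.61 and Itga6 at -0.65 ± 0.40 (edgeR adjusted p = 0.353 and 0.487). In NCM, Itga6, a laminin-binding chain that endothelial cells also express, averaged 278 ± 99.0 CPM in deleted against 79.6 ± 43.1 CPM in control libraries (log2 fold change 1.81 ± 0.41; adjusted p = 0.0559), and it passed without IM661 (0.0497) or NCM650 (0.0340). Itga1, a collagen-binding chain, averaged 596 ± 213 CPM against 151 ± 117 CPM (log2 fold change 1.98 ± 0.63; adjusted p = 0.137). The median of the 14 chains in NCM was 1.47 (9 above 0 and 5 below), opposite in sign to that of the 9 leukocyte chains. Most endothelial markers given above were also above 0 in NCM, and their part was not tested. In IM, Itga1 was at 0.80 ± 0.61 and Itga6 at 0.17 ± 0.39 (edgeR adjusted p = 0.823 and 0.999).

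Of 21 tested genes that switch integrins to the binding state, 8 were lower and none was higher in IM control than in NCM control (median log2 fold change -0.89, beside 0.06 over all genes), where 4.67% of all genes were lower. Between deleted groups 4 were lower (median -0.46), where 1.35% of all genes were. Rasgrp2, the exchange factor that loads Rap1, averaged 5.03 ± 0.93 CPM in IM deleted and 4.27 ± 3.04 CPM in IM control, against 66.6 ± 41.2 CPM in NCM deleted and 70.8 ± 18.2 CPM in NCM control. Its log2 fold change was -4.04 ± 0.61 between controls and -3.72 ± 0.61 between deleted groups (edgeR adjusted p = 0.000976 and 0.00174), and both calls held in each fit that left out 1 library, although the first value was -4.72 without IM659. The Rap1 genes Rap1a (-1.75 ± 0.30; adjusted p = 0.00215) and Rap1b (-1.80 ± 0.35; 0.00479) were also lower in IM control, in each such fit. Between deleted groups Rap1a was at -1.31 ± 0.29 (edgeR adjusted p = 0.0159; lost without IM650, IM661 or NCM650, 0.0591 to 0.0685) and Rap1b at -1.35 ± 0.34 (0.0332; lost without IM648, IM649, IM650, NCM649 or NCM650, 0.0507 to 0.143). Fyb, an adaptor between the T-cell kinase pathway and integrins, was at -1.83 ± 0.37 between controls (edgeR adjusted p = 0.00664; lost without IM659, 0.0521). Rassf5, which carries active Rap1 to the alpha L chain, was at -1.45 ± 0.37 between deleted groups (edgeR adjusted p = 0.0331; lost without IM649, IM650, IM661, NCM649 or NCM650, 0.0621 to 0.124).

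In NCM, 1 of these 21 genes was lower with the deletion. Fermt3, the kindlin of blood cells that binds beta tails, averaged 59.6 ± 10.85 CPM in NCM deleted against 159.9 ± 31.0 CPM in NCM control (log2 fold change -1.42 ± 0.29; edgeR adjusted p = 0.0439). The call was lost without IM648, IM659, IM660, IM649, NCM648, NCM657 or NCM649 (adjusted p 0.0565 to 0.163). Fermt3 also did not pass with the other scaling (0.0647), with lane as a covariate (0.13005) or in a fit of the 6 NCM libraries (0.277). None passed in IM: Flna, a filamin that binds beta tails, was at -0.49 ± 0.27 and Tln1, the talin that activates them, at -0.17 ± 0.23 (edgeR adjusted p = 0.626 and 0.974).

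Of 18 tested signalling genes downstream of integrins, 6 were lower and none was higher in IM control than in NCM control, where 4.67% of all genes were lower (median log2 fold change -0.44). Between deleted groups 1 was lower, where 1.35% of all genes were (median -0.34). The Src-family kinase Fgr averaged 27.9 ± 10.3 CPM in IM deleted and 45.7 ± 7.20 CPM in IM control, against 263 ± 151 CPM in NCM deleted and 426 ± 179 CPM in NCM control. Its log2 fold change was -3.22 ± 0.47 between controls and -3.24 ± 0.47 between deleted groups (edgeR adjusted p = 0.000677 and 0.000765), in each fit that left out 1 library. The adaptor Lcp2 (-2.002 ± 0.458), the kinase Lyn (-1.37 ± 0.31) and the phospholipase Plcg2 (-1.53 ± 0.36) passed between controls with edgeR adjusted p of 0.0138, 0.0138 and 0.0149. Lcp2 was lost without IM648, IM659, IM660 or NCM648 (0.0580 to 0.0724), Lyn without IM659, IM660 or NCM648 (0.0573 to 0.0953), and Plcg2 without IM648, IM659 or NCM648 (0.0576 to 0.0975).

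The median log2 fold change of the 18 signalling genes with the deletion was -0.70 in NCM, beside -0.10 over all genes, and -0.03 in IM. In NCM 1 of the 18 passed, as lower. None passed in IM, where Lyn was at -0.06 ± 0.31 and the kinase Syk at 0.23 ± 0.35 (edgeR adjusted p = 0.9995 and 0.981).

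Of 18 tested ligand genes, 4 were higher and none was lower in IM control than in NCM control, where 2.81% of all genes were higher (median log2 fold change 0.27, with 11 above 0). Between deleted groups 2 were higher, where 3.22% of all genes were, and the median had the other sign (-0.10, with 8 above 0). Icam1, the ligand of LFA-1 and Mac-1, averaged 232 ± 88.3 CPM in IM deleted and 226 ± 29.8 CPM in IM control, against 52.7 ± 34.7 CPM in NCM deleted and 88.6 ± 17.3 CPM in NCM control. Its log2 fold change was 1.35 ± 0.39 between controls (edgeR adjusted p = 0.0466) and 2.13 ± 0.40 between deleted groups (0.00463; 2.83 without NCM661). The first call was lost in 8 of 12 fits that left out 1 library (IM648, IM659, IM660, IM649, IM650, NCM648, NCM657 and NCM659; 0.0501 to 0.182), and the second held in each. Vcam1, the ligand of alpha 4 beta 1, averaged 186 ± 67.6 CPM in IM deleted and 136 ± 19.6 CPM in IM control, against 5.69 ± 5.15 CPM in NCM deleted and 8.43 ± 9.02 CPM in NCM control. Its calls (log2 fold change 4.002 ± 1.131 and 4.99 ± 1.19; edgeR adjusted p = 0.0460 between controls and 0.0258 between deleted groups) were lost in 10 and 8 of those fits, those without NCM659 or NCM649 being the exceptions for the first, and those without NCM648, NCM657, NCM659 or NCM649 for the second.

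The bridging protein gene Mfge8, which links dead cells to alpha V integrins, was at 2.14 ± 0.47 between controls (edgeR adjusted p = 0.0103; lost without NCM657, 0.0524, and 2.91 without NCM659). F11r, the junctional ligand of LFA-1, was at 1.73 ± 0.45 (edgeR adjusted p = 0.0262; lost without IM648, IM659, IM660, NCM648 or NCM657, 0.0578 to 0.120). With the deletion, 1 ligand gene passed in NCM: Tgfb1, whose latent product is released by alpha V integrins, averaged 93.0 ± 11.8 CPM in NCM deleted against 202 ± 12.3 CPM in NCM control (log2 fold change -1.118 ± 0.232; edgeR adjusted p = 0.0493). The call was lost in every fit that left out 1 library except those without NCM650 or NCM661 (0.0513 to 0.157), and with the other scaling (0.0793), no filter (0.0743), lane as a covariate (0.13005) and only the NCM libraries (0.322). None passed in IM, where Fn1, the fibronectin gene, was at -0.32 ± 0.96 and Thbs1, the thrombospondin gene, at 0.38 ± 0.54 (edgeR adjusted p = 0.9995 and 0.976).

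With the non-exonic share as a covariate, 28 genes in all passed between controls in place of 1066. Between controls that share cannot be told apart from cell type. No gene named in these lists kept its call there: Rasgrp2 was at -2.73 (edgeR adjusted p = 0.457), Fgr at -1.74 (0.474), Rap1a at -0.84 (0.616), Mfge8 at 0.95 (0.741) and Lcp2 at -0.13 (0.974). Lane as a covariate ended the calls of Itga9 (0.0807), F11r (0.0872) and Icam1 (0.0980) between controls and of Rap1a (0.0533), Rassf5 (0.0684), Rap1b (0.0736) and Vcam1 (0.147) between deleted groups. That covariate set lanes apart only within each cell type, so it could not adjust IM against NCM for lane. In a fit of only the 6 deleted libraries Icam1 (0.0722), Rap1a (0.137), Rassf5 (0.144) and Rap1b (0.17999) did not pass, and without a filter on low counts Vcam1 did not pass (0.207 between controls and 0.183 between deleted groups). None of the genes of these 4 lists passed for the difference of deletion effects, IM minus NCM. By the naming rule, the most abundant of each list stood at -1.18 ± 0.86 (Itga1), -1.64 ± 0.56 (Itga6), 0.50 ± 0.38 (Flna), 0.69 ± 0.32 (Tln1), 2.19 ± 1.38 (Fn1), 1.59 ± 0.77 (Thbs1), 0.46 ± 0.44 (Lyn) and 0.75 ± 0.50 (Syk) on the log2 scale, with edgeR adjusted p of 0.457 to 0.821. The related genes were chosen for their roles, but with earlier results of these data known. The calls given here share their control libraries with those of the 9 chains.

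Within the family, the chains fell into patterns over the 12 libraries. Log2 CPM of Itgal followed that of Itga4 (Pearson r = 0.954), Itgb1 (0.879) and Itgb2 (0.828), while Itgam followed Itgax (0.859) and Itgav (0.820) and had an r of only 0.195 with Itgal. Itgb5 had negative r with Itgal (-0.732), Itga4 (-0.720) and Itgb1 (-0.706). Among 5950 other genes whose log2 CPM averaged 4 or more, the nearest to Itgal were Gsr (0.994), the gene of glutathione reductase, and Slc16a3 (0.988), a lactate transporter gene. Those nearest to Itgam were Actr2 (0.944), a subunit of the actin-branching complex, and Sfpi1 (0.941), the gene of PU.1. Itgax was nearest to Zfp36l2 (0.945) and Lilrb3 (0.935), and Itgb2 to Flna (0.985) and B4galnt1 (0.971).

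Itgb1 was nearest to Elovl5 (0.958) and Cd36 (0.950), Itga4 to Samsn1 (0.990) and Pag1 (0.990), and Itgb7 to H2-D1 (0.943) and Hist1h1e (0.943). Itgav was nearest to Nfkbiz (0.933) and Irak2 (0.924), both of the NF-kB pathway. Itgb5 was nearest to Clec5a (0.978), a myeloid lectin gene, and Mmp12 (0.967), the macrophage elastase gene. Each r is over the 12 libraries, which share 2 cell types, their lanes and their depths, so it describes these libraries only.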

How the data were processed

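RNA of 12 sorted mouse lung libraries had been made into sequencing libraries with a SMARTer stranded total RNA kit for low input, per the labels' protocols. Per the file contents, the deposited values are raw read counts by gene, with 26608 gene rows and 5 summary rows each; the submitters' processing notes name cutadapt 1.12, TopHat2 2.1.1, HTSeq 0.6.0 and the build GRCm38. The sources used here do not give the annotation or the strand setting. The summary rows (45.0 to 74.1% of all counts) were left out of library sizes and tests, and no pair of libraries held identical values (0 pairs).

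Counts were filtered with filterByExpr (minimum count 10, 14254 genes kept), scaled by TMM and tested with the quasi-likelihood test of edgeR 4.0.16 in R 4.3.3, with 4 group means over all 12 libraries, 8 residual degrees of freedom and Benjamini-Hochberg adjustment over all genes at 0.05. DESeq2 1.42.0 was an alternative. CPM use TMM library sizes, and intervals cover 95%. Shares are counts per kilobase of GENCODE M21 exons, tested by exact two-sided permutation within strata and adjusted over 8 tests. Lanes were read from the names of the deposited files. The members and the gene lists (17 with the members, 209 of 211 entries found, by symbol or RefSeq synonym) were chosen with earlier results of these data known. From each related list, genes past the threshold were named, at most 4 by smallest p, or the 2 most abundant where none passed. For likeness, the 2 genes with the highest r were named. Alternatives were the scaling, the filter, DESeq2, lane or non-exonic share as covariate, fewer libraries, the library number as a block and each library left out; division by a marker sum was added after the data were seen. No source says that same-numbered libraries share an animal, and deviations of the 5 same-numbered pairs had correlations of -0.0654 to 0.0809, so the tests were kept without a block. A result of the signalling list is not reported here.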

Additional observations from a re-analysis of the deposited data

How the results depend on the processing

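Depth (5332600 to 14099509 gene counts) and 3 libraries a group limit the precision. Of 540 leave-one-out values of the 9 chains, 509 kept their direction and their side of the threshold, and of 288 values under other settings 251 did. The cause of the changes below was not tested. In NCM deleted against NCM control, 0 chains passed. With no filter 2 did (153 genes in all), by DESeq2 4 (1093 genes) and with the non-exonic share as covariate 6 (351 genes). With 1 library left out 0 to 3 passed. The number stayed at 0 with the other scaling (59 genes), lane as covariate (3 genes) and only the 6 NCM libraries (0 genes). Between controls 4 chains passed, but 1 with the non-exonic share (28 genes in all, against 1066), 2 under the replicate block (Itgal and Itga4, with Itgb2 at an edgeR adjusted p of 0.104 and Itgb5 at 0.163) and 3 to 5 with 1 library left out. Between deleted groups 3 passed, but 1 in a fit of only those 6 libraries, which has fewer samples, and 2 to 4 with 1 library left out.

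Whether same-numbered libraries share an animal is not stated (correlations of -0.0654 to 0.0809 in same-numbered pairs and -0.102 to 0.0874 in others). Under the replicate block of 5 pairs, whose smallest p is 0.0625, IM minus NCM shares were -42.7 points for Itgal, 31.3 for Itgam, 11.4 for Itgax (adjusted p = 0.0833 each, exact permutation) and -18.0 for Itgb2 (0.125), and Itgax between controls was at -0.30.

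No value that turned sign had passed, except Icam1 between controls, at -0.16 with the non-exonic share. With that covariate, which in IM cannot be told apart from genotype, the deletion in IM gave -1.79 for Itga4, 1.06 for Itgb7, -0.66 for Itgav and -1.18 for Syk. The difference of effects was -0.73 for Itgal, -0.0080 for Itgax, -0.019 for Itgb2, -0.42 for Itga4 and -0.034 for Itgb5. Between controls Itgam was at 0.11 and Itgav at 0.41. The Itgb5 difference was also -0.12 with the other scaling and by DESeq2, -0.14 with no filter and -0.15 with lane.

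With 1 library left out, signs turned for the Itgb5 difference (-0.38 to 0.75), Itgax between controls (-0.19 to 0.36), Itgb7 between deleted groups (-1.70 to 0.41), Itgb1 in NCM (-0.010 to 0.13), Itgav (-0.026 to 0.23), Lyn (-0.20 to 0.014) and Itga6 (-0.072 to 0.29) in IM, and the Itgam share with deletion (-3.06 to 1.14 points).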
